A study of Mus musculus with 56 samples.

Results

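The inhibitors of cyclin-dependent kinases, Cdkn1a, Cdkn1b, Cdkn1c, Cdkn2a, Cdkn2b, Cdkn2c and Cdkn2d, and Mtap, which lies next to Cdkn2a on chromosome 4, were followed through all arrays of the series. These 8 genes were picked by symbol, and each had 1 probe among the 21766 probes (15063 named genes) of the array. The series holds 56 two-color hybridizations, made to compare ways of amplifying very small amounts of RNA. OV, a cell line of mouse ovarian surface epithelium, was set against 3T3, a mouse fibroblast line, on 28 arrays, as 7 comparisons of 4 arrays with each dye orientation on 2 of them. By the methods, the 4 arrays of a comparison hold 2 independent replicates of each line, each hybridized in both orientations, so that the n of 4 behind SDs and p-values counts arrays and not independent targets. The correlation that limma estimated within assumed dye-swap pairs was 0.32 for GA at 10 ng and 0.46 for GA at 10 pg. In 1 comparison the targets were unamplified cDNA reverse transcribed from 100 μg of total RNA of each line. In 4 comparisons they were amplified from 10 ng by IVTIII (in vitro transcription by T7 RNA polymerase in successive rounds), GA (global PCR amplification of polyadenylated cDNA), SMART (template switching followed by PCR) or SM37 (a modified SMART protocol). In the remaining comparisons 10 pg was amplified by SMART or by GA. A further 21 arrays compared OV targets prepared in parallel, 3 compared an OV target with itself, and 4 compared amplified RNA of pooled progenitor cells from mouse embryonic neocortex. OV and 3T3 were each a single untreated line and the sources name no separate cultures, so p-values cover the spread between targets and hybridizations and not that between cultures.

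Cyclin-dependent kinases drive the cell cycle once a cyclin has bound them. The Cip/Kip inhibitors (Cdkn1a, Cdkn1b and Cdkn1c) bind whole cyclin-kinase complexes, whereas the Ink4 inhibitors (Cdkn2a, Cdkn2b, Cdkn2c and Cdkn2d) bind the kinases Cdk4 and Cdk6 and keep D cyclins off them, which leaves the retinoblastoma protein active and holds the cell before S phase. Cdkn2a has separate first exons for Ink4a and for Arf, a protein that stabilizes p53 by blocking Mdm2, and its locus is often lost when mouse fibroblasts are grown into permanent lines. Mtap encodes methylthioadenosine phosphorylase, an enzyme that returns a by-product of polyamine synthesis to methionine, and tumors that delete the locus often lose it too.

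Values are log2 ratios of OV to 3T3, so that a positive value means more signal from OV. They carry the sign that follows from reading the deposited ratios as Cy5 over Cy3, which is the likely reading. The methods and legends of the study name the dyes in both orders, and every direction given here would turn if the other order held. With this reading, markers of ovarian surface epithelium were higher in OV for 8 of 9 probes measured on all 4 unamplified arrays, led by the urothelial and mesothelial membrane protein Upk1b (4.26 ± 0.33 (SD, n = 4)) and the mesothelial transcription factor Wt1 (3.65 ± 0.50). The keratin gene Krt18 went the other way at -0.75 ± 0.25. Fibroblast markers were split, with 2 of 10 probes higher in OV (Col3a1 at 2.15 and Col1a1 at 1.47) and 2 lower (Prrx1 at -3.33 and Thy1 at -1.60). None of 4 immune and 3 endothelial probes was called in either direction at 15.3% of all probes called, and of 7 neural probes only Tubb3 was, at -0.68. Arrays of GA at 10 pg stood apart from the rest: they correlated with one another across probes at 0.455 to 0.846, but with the 24 other arrays of OV and 3T3 only at -0.222 to 0.072. Arrays of SMART at 10 ng correlated with one another at -0.093 to 0.702. With the mean of the unamplified arrays, arrays 1 to 4 of SMART correlated at 0.370, 0.675, 0.677 and 0.507, so that array 1 was lowest and array 4 next. Probes with a value numbered 14198 to 18274 on unamplified arrays and 2303 to 5137 on those of SMART at 10 pg, and why the other probes have none is not given in the sources used here.

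Of the 8 genes, 5 had a value on all 4 unamplified arrays and could be tested, and each of these was called different between OV and 3T3 (limma, LOD above 0, where LOD is the log odds that a probe differs). Among all 12866 probes tested, 15.3% were called, 8.18% as higher in OV and 7.07% as lower. Cdkn1a, Cdkn2c and Mtap were lower in OV, and Cdkn2a and Cdkn2b were higher. Cdkn1b, Cdkn1c and Cdkn2d had a value on array 3 alone, so the 5 do not speak for the other members.

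Cdkn1a, the inhibitor that p53 switches on after DNA damage, had the largest ratio of the 8 genes. Its log2 ratios were -3.03, -1.52, -2.64 and -2.67 on unamplified arrays 1 to 4. Array 2 lay above the other three, and all 4 were far below 0. The mean of -2.46 ± 0.65 (SD, n = 4) is a level 5.52-fold lower in OV than in 3T3 (adjusted p = 0.000545, limma). Only 0.0855% of all tested probes had a lower ratio, and without array 2 the mean was -2.78. The probe was not assigned to transcripts from either of the alternative first exons. The 300 bases around the upstream start of Cdkn1a in RefSeq (chr17:29090729-29091028, plus strand, GRCm38.p6) are shown because p53 sites there are the best known input to this gene. Capitals mark matches to the p53 half-site consensus, which reads the same on both strands. The window holds 2 that do not overlap, and 8.36% of 32851 promoter windows of this length hold at least 1. The window of the downstream start (chr17:29093519-29093818), not shown, holds none.
Cdkn1a, upstream start: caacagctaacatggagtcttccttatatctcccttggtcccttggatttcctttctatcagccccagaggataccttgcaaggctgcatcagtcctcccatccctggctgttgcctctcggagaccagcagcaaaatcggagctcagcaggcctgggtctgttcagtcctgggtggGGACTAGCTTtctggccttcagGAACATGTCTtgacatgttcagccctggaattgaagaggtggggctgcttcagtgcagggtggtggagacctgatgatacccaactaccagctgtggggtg

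Cdkn2a was the most tightly measured of the members that were higher in OV. Its log2 ratios were 1.73, 1.47, 1.53 and 1.60, all well above 0 and within a narrow band. The mean of 1.58 ± 0.11 (SD, n = 4) is 2.99-fold higher in OV (adjusted p = 5.72e-05, limma), above 98.6% of all tested probes. Cdkn2b, the Ink4 inhibitor that TGF-beta induces, had ratios of 0.96, 0.88, 1.55 and 0.77, with array 3 above the others. Its mean of 1.04 ± 0.35 is 2.06-fold higher in OV (adjusted p = 0.00147, limma). This call was lost when array 1 or array 2 was left out (LOD -0.52 and -0.28), although the mean stayed at 1.07 and 1.09.

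Mtap ran against its neighbors. Its ratios were -1.74, -1.41, -1.46 and -1.80, and none came near those of Cdkn2a or Cdkn2b. The mean of -1.60 ± 0.20 (SD, n = 4) is 3.04-fold lower in OV than in 3T3 (adjusted p = 0.000115, limma). Only 0.521% of all tested probes had a lower ratio. Cdkn2a and Cdkn2b thus had less signal from 3T3 than from OV, and Mtap had more. Ratios of RNA do not measure gene copies, and the signal intensities were not used here, so how far the 3T3 signal of Cdkn2a and Cdkn2b rose above background is not known. In bulk RNA of a line, fewer expressing cells and less RNA per cell cannot be told apart.

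The windows at the starts of the 3 neighboring genes are shown to place these opposite ratios on the map. Mtap (chr4:89137120-89137419) is read from the plus strand and the others from the minus strand. The window of the downstream start of Cdkn2a, which gives Ink4a, is chr4:89282143-89282442, that of the upstream start, which gives Arf, is chr4:89294570-89294869, and that of Cdkn2b is chr4:89310983-89311282 (RefSeq, GRCm38.p6). The 1 probe of Cdkn2a was not assigned to either transcript. Capitals mark GGGCGG, the core of a GC box, searched on both strands. It occurs 3 times at the Arf start, 1 time each at the Ink4a and Cdkn2b starts, with no overlap, and not in the Mtap window, and 35.7% of all promoter windows hold it.
Mtap: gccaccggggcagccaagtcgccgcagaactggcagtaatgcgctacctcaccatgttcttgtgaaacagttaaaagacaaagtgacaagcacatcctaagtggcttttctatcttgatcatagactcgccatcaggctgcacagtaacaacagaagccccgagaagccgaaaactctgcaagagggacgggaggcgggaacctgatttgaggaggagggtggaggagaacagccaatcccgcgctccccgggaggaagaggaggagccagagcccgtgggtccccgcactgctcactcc
Cdkn2a, Ink4a start: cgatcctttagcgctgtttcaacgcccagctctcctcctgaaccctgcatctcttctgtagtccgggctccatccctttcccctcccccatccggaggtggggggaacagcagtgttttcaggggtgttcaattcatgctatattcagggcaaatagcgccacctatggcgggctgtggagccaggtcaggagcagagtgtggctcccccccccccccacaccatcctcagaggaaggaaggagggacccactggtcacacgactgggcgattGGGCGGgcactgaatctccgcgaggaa
Cdkn2a, Arf start: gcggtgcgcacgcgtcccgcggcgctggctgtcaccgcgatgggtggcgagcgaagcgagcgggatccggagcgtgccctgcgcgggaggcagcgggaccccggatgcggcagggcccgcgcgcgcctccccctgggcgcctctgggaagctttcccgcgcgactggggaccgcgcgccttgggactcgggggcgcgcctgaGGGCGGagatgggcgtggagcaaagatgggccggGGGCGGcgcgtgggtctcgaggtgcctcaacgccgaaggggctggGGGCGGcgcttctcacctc
Cdkn2b: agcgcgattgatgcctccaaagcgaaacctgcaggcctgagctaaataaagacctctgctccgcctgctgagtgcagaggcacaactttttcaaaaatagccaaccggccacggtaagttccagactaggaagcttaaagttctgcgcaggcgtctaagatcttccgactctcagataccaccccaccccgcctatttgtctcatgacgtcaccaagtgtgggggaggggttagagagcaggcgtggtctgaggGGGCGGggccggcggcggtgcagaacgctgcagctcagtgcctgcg

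Cdkn2c, an Ink4 inhibitor that many dividing cells express, had the smallest of the called ratios. Its values were -0.82, -0.62, -0.64 and -0.63, with array 1 below 3 nearly equal arrays. The mean of -0.68 ± 0.10 (SD, n = 4) is 1.60-fold lower in OV (adjusted p = 0.000581, limma). Of the members seen only on array 3, Cdkn1b, the inhibitor that is removed through Skp2 as cells enter S phase, had a ratio of -0.57. Cdkn1c, the imprinted member of the family, had -0.11, and Cdkn2d, the remaining Ink4 inhibitor, had -0.26. No test can be made of these single values.

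**Figure D1:**
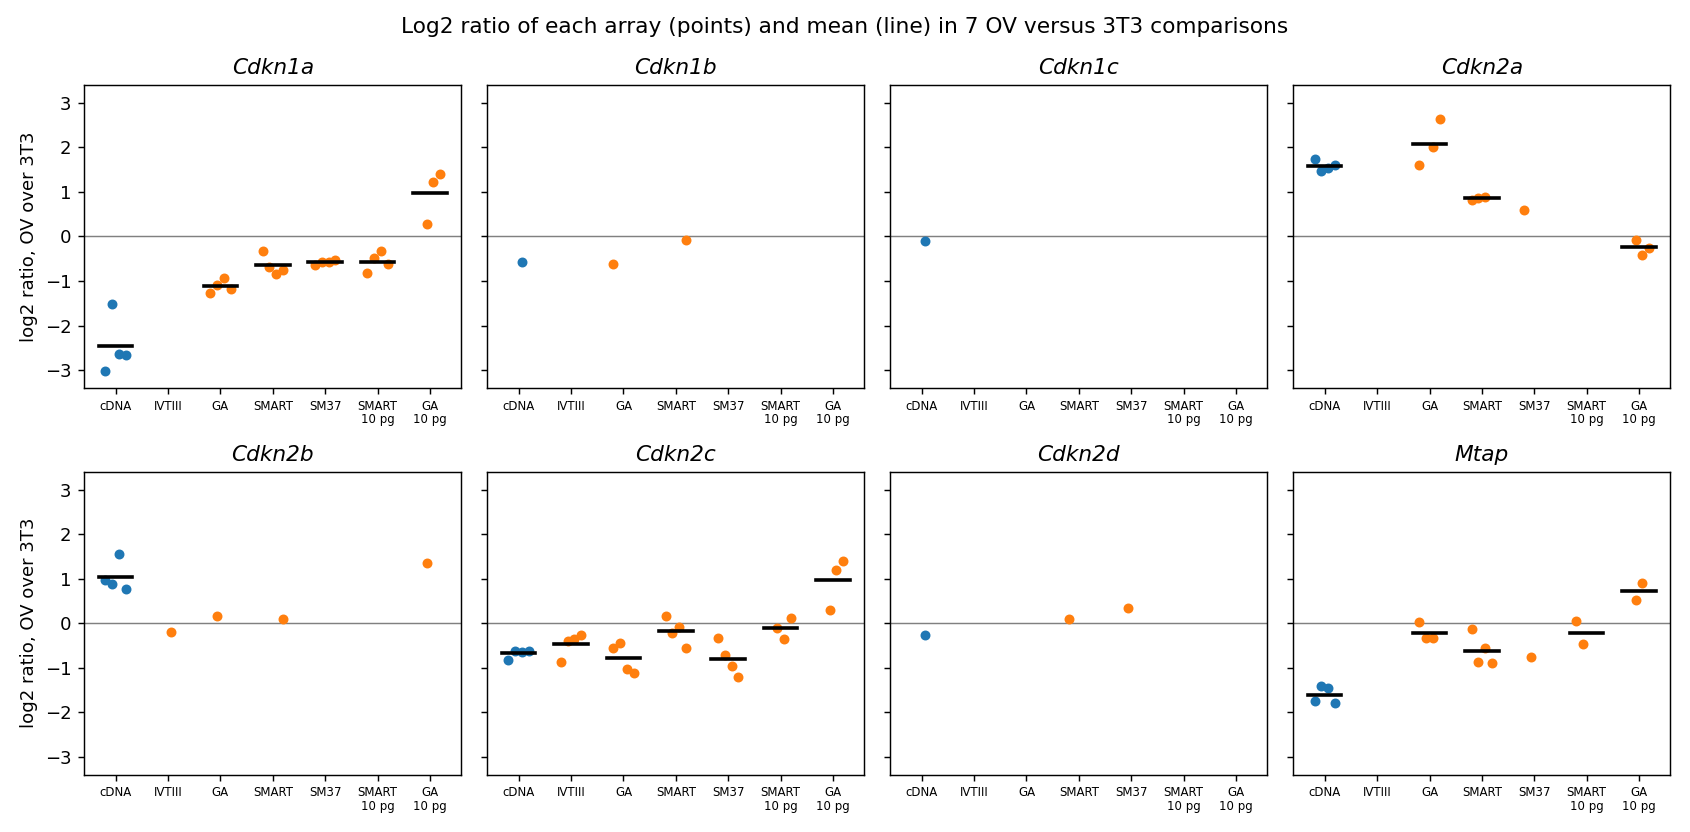
Log2 ratio of OV to 3T3 (y axis) of the 8 genes on each array (points, blue for unamplified cDNA and orange for amplified targets) in the 7 comparisons (x axis), with the mean where at least 2 arrays had a value (line). Cdkn1a and Mtap lie lowest and Cdkn2a and Cdkn2b high in unamplified cDNA, ratios of Cdkn1a lie nearer to 0 after SMART and SM37, and GA at 10 pg has Cdkn1a and Cdkn2c above 0 and Cdkn2a below it.

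The spread without a difference in cell line was read from the 24 arrays on which OV was hybridized to OV, with 80 values of the 8 genes. Their median size was 0.13 on the log2 scale. Cdkn1a ranged there from -0.35 to 0.13 (16 values) and Cdkn2a from -0.66 to 0.28 (11 values), both clear of their 4 unamplified ratios between the lines. Cdkn2b ranged from -0.70 to 0.28 (10 values) and Mtap from -0.57 to 1.15 (15 values), also without overlap. Cdkn2c was different: its 19 values ran from -0.70 to 1.77, which takes in 3 of its 4 ratios between the lines. The high end came from GA of small inputs, with 1.77 and 1.49 at 10 pg and 1.23 at 100 pg, and IVTIII replicas were at -0.57 and -0.70. On the unamplified replica array, Cdkn2c was at -0.09 and the 7 members with a value lay between -0.12 and 0.12. The ranges within OV mix amplified and unamplified arrays and rest on unequal numbers of values. The share of all probes without overlap was not counted, so the lack of overlap is not read as particular to these genes.

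**Figure D2:**
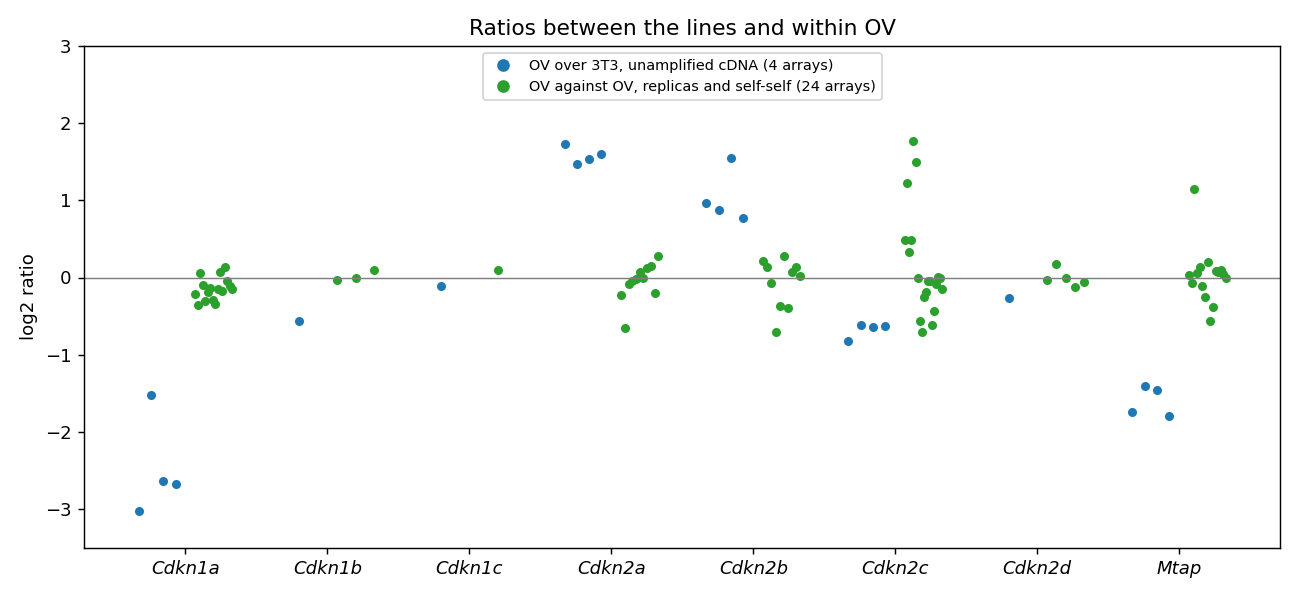
Log2 ratios (y axis) of the 8 genes (x axis) on the 4 unamplified arrays of OV over 3T3 (blue) and on 24 arrays of OV against OV, amplified or not (green). Points of Cdkn1a, Cdkn2a, Cdkn2b and Mtap do not overlap between the colors, and those of Cdkn2c do. The share of all probes without overlap was not counted.

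After amplification of 10 ng, Cdkn1a remained lower in OV by every method that measured it, and was the only member called in each of these comparisons. With GA its log2 ratios were -1.27, -1.08, -0.93 and -1.19, a mean of -1.12 ± 0.15 (SD, n = 4), and it was 1 of 2 members tested at 8.06% of all probes called (adjusted p = 0.00193, limma). With SMART the ratios were -0.32, -0.69, -0.84 and -0.76, a mean of -0.65 ± 0.23, and it was 1 of 3 members tested at 3.33% called (adjusted p = 0.0105). With SM37 they were -0.65, -0.58, -0.58 and -0.53, a mean of -0.59 ± 0.05, and it was 1 of 2 tested at 14.1% called (adjusted p = 0.00126). GA values lay below all SMART and SM37 values, and the last pair overlapped. IVTIII gave no value of Cdkn1a on any array. The SMART call was lost without array 2 or array 3 (LOD -1.01 and -1.02), held without array 1 at a mean of -0.76, and the SM37 call was lost without array 1 or array 2 (LOD -0.40 and -0.35).

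At 10 pg, an amount near that of a single cell, SMART still placed Cdkn1a below 0 on every array. Its ratios were -0.82, -0.49, -0.33 and -0.63, a mean of -0.57 ± 0.21 (SD, n = 4), and it was the 1 member tested at 8.93% of 1288 probes called (adjusted p = 0.00225, limma). The call was lost without array 1, 2 or 4 (LOD -0.61, -0.56 and -1.13). Over the 24 arrays other than those of GA at 10 pg, Cdkn1a was lower in OV on 20 of 20 arrays with a value. GA at 10 pg, left out of this count, had Cdkn1a above 0 on all 3 arrays with a value. The count takes in both dye orientations of the same targets. The share of all probes with the same sign throughout was not counted.

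Cdkn2a kept its side of 0 on the amplified arrays that measured it, GA at 10 pg aside. With GA it was 1.60, 2.01 and 2.63 on 3 arrays, a mean of 2.08 ± 0.52 (SD, n = 3). With SMART it was 0.81, 0.87 and 0.88, a mean of 0.85 ± 0.04 (SD, n = 3). The GA values overlapped the unamplified ones and the SMART values lay below both. A fit that asked for a value on only 3 arrays called Cdkn2a with both methods (adjusted p = 0.00364 for GA and 0.00774 for SMART, limma), at 6.24% and 2.58% of all probes. SM37 had a single value of 0.60, and IVTIII and SMART at 10 pg had none. Over the same 24 arrays Cdkn2a was higher in OV on 11 of 11 arrays with a value, and with GA at 10 pg it was below 0 on all 3. The count includes the unamplified arrays and both dye orientations, and the share of all probes with 1 sign was not counted.

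Cdkn2b had few values on amplified arrays of OV and 3T3, although it had one on several amplified OV replica arrays. It had 1 value each with IVTIII (-0.20), GA (0.15) and SMART (0.10), all below the lowest unamplified value of 0.77, and none with SM37 or SMART at 10 pg. Cdkn1b had 1 value with GA (-0.62) and 1 with SMART (-0.08), and Cdkn2d had 1 with SMART (0.10) and 1 with SM37 (0.35). Cdkn1c had none in any amplified comparison of OV and 3T3. These single values allow no test.

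Mtap was measured on all 4 amplified arrays with SMART alone, where its ratios were -0.14, -0.88, -0.56 and -0.89. Array 1, which of the 4 correlated least with unamplified cDNA across probes, gave the value nearest to 0. The mean of -0.62 ± 0.35 (SD, n = 4) did not pass the LOD threshold (LOD -0.79, adjusted p = 0.0297, limma). Without array 1 the mean was -0.78 with an LOD of 3.05. Without array 2, 3 or 4 the LOD was -2.65, -1.94 or -1.80. With GA the values were 0.03, -0.34 and -0.34 (mean -0.22 ± 0.21 (SD, n = 3), adjusted p = 0.296 in the fit on 3 arrays, limma), with SM37 a single -0.76, and with SMART at 10 pg 0.04 and -0.46. Mtap was lower in OV on 12 of 14 arrays with a value outside GA at 10 pg, where it was above 0 on the 2 arrays with a value. This count, too, includes the unamplified arrays and both dye orientations, and has no share of all probes beside it.

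Cdkn2c was the member with most values and passed the LOD threshold in no amplified comparison with values on all 4 arrays required. It was the 1 member tested with IVTIII, where 22.0% of 4599 probes were called, with ratios of -0.88, -0.40, -0.36 and -0.26 and a mean of -0.47 ± 0.27 (SD, n = 4, LOD -2.73). Array 1 of IVTIII, whose labels name 3T3 in both channels in 1 field, was the lowest, and the mean without it was -0.34. GA gave -0.55, -0.44, -1.03 and -1.11 (mean -0.78 ± 0.34) and SM37 -0.33, -0.71, -0.97 and -1.20 (mean -0.80 ± 0.38, LOD -0.10). The SM37 value lay at the threshold: it was called in the fit on at least 3 arrays (LOD 0.01, 12.2% of probes called), with scaled arrays (LOD 0.81), with a prior of 0.05 (LOD 1.79) and without array 1 (LOD 1.95). SMART gave 0.16, -0.21, -0.08 and -0.56 (mean -0.17 ± 0.30), and 10 pg with SMART -0.11, -0.35 and 0.12. All 4 values were below 0 with IVTIII, GA and SM37, and values fell on both sides of 0 with SMART. Adjusted p-values were 0.0110, 0.0108, 0.00348 and 0.464 for IVTIII, GA, SM37 and SMART at 10 ng (limma), so that those of IVTIII, GA and SM37 would pass a threshold of 0.05 on the adjusted p, which 55.5%, 27.4% and 44.6% of all probes passed.

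The ratio after amplification was then tested against that of unamplified cDNA on 8 arrays, for members with all 8 values. These comparisons share the 4 unamplified arrays. Cdkn1a was closer to 0 after every amplification in which it was tested. The difference was 1.35 (95% interval 0.73 to 1.96, adjusted p = 0.00918) with GA, 1.81 (1.23 to 2.39, adjusted p = 0.00102) with SMART, 1.88 (1.32 to 2.44, adjusted p = 0.000356) with SM37 and 1.90 (1.30 to 2.49, adjusted p = 0.000457) with SMART at 10 pg (limma). Of all probes, 20.7%, 17.0%, 38.3% and 34.8% differed in these comparisons. The SMART ratio was 0.264 of the unamplified one on the log2 scale, the GA ratio 0.454 of it and the SM37 ratio 0.237. No amplified array in these comparisons overlapped an unamplified one, and the share of all probes without overlap was not counted. The paper reports that SMART reduces ratios in general, and GA not significantly. Over all probes the SD of single arrays was 0.238 to 0.391 with SMART at 10 ng and 0.42 to 0.534 without amplification. It was 0.434 to 0.683 with GA at 10 ng, 0.423 to 0.535 with SM37 and 0.28 to 0.322 with SMART at 10 pg. Whether Cdkn1a or other members moved more than probes with ratios of like size was not tested.

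Mtap also lay nearer to 0 with SMART, by 0.98 (0.61 to 1.36, adjusted p = 0.00291, limma). With GA, on 3 arrays, it differed by 1.39 (1.03 to 1.74, adjusted p = 0.00131) where 17.3% of probes differed. For Cdkn2a, the difference with SMART on 3 arrays was -0.73 (-0.97 to -0.48, adjusted p = 0.00246), where 14.2% of probes differed, and that with GA was 0.50 and had an adjusted p of 0.154. Cdkn2c differed with SMART by 0.51 (0.19 to 0.83, adjusted p = 0.0354), which was lost when array 1 of SMART was left out (0.40, adjusted p = 0.0751) and held with 1 array left out only when that was array 4 of SMART. It was also lost with scaled arrays (0.46, adjusted p = 0.0552, limma). With SMART at 10 pg, on 3 arrays, Cdkn2c differed by 0.57 (0.29 to 0.85, adjusted p = 0.00801, limma), where 30.3% of probes differed. With IVTIII, GA and SM37 the differences of Cdkn2c were 0.21 (-0.10 to 0.51), -0.10 (-0.47 to 0.27) and -0.12 (-0.49 to 0.25), with adjusted p of 0.253, 0.699 and 0.595, where 47.5%, 20.7% and 38.3% of probes differed. The IVTIII difference was 0.34 without array 1 of IVTIII, the one with conflicting labels (adjusted p = 0.0283), and 0.42 with arrays scaled to a common median absolute deviation (adjusted p = 0.0295, limma). The intervals of GA and SM37 do not exclude ratios lower than the unamplified one by 0.47 and 0.49 on the log2 scale.

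**Figure D3:**
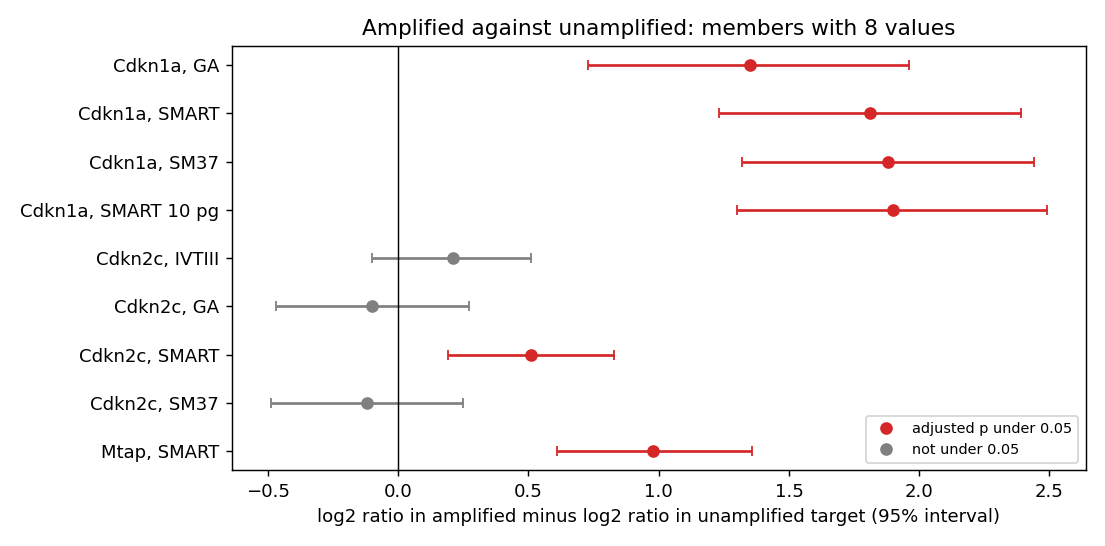
Difference of the log2 ratio in amplified minus that in unamplified target (x axis, points) with 95% intervals (bars) for each member and method with 8 values (y axis), red where the adjusted p was under 0.05. Those of Cdkn1a run from 1.35 to 1.90, and 3 of the 4 of Cdkn2c span 0.

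With GA at 10 pg, most members with a value had the other sign. No member had a value on all 4 arrays, where 5.18% of 5709 probes were called. Cdkn1a was at 0.28, 1.22 and 1.40 on arrays 2 to 4, and Cdkn2c at 0.30, 1.19 and 1.40 on the same arrays, nearly the same numbers. Cdkn2a was at -0.08, -0.41 and -0.25, Mtap at 0.53 and 0.90, and Cdkn2b at 1.36 on 1 array. Of these genes, Cdkn2b alone had the sign it had without amplification. On 3 arrays, the ratios differed from unamplified cDNA by 3.43 for Cdkn1a (2.50 to 4.36, adjusted p = 0.00107, limma), -1.83 for Cdkn2a (-2.19 to -1.47, adjusted p = 0.000262) and 1.64 for Cdkn2c (1.04 to 2.25, adjusted p = 0.00392), where 29.0% of probes differed, and 34.6% of those with all 8 values. On their own, none of the 3 ratios was called, at 2.67% of all probes with values on at least 3 arrays (adjusted p = 0.120, 0.398 and 0.117, limma). OV replicas made by GA from 10 pg had Cdkn2c at 1.77 and 1.49 and Cdkn1a at -0.30 and -0.19, so ratios of Cdkn2c of this size also arose within a single line.

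How often a member had a value differed widely. Cdkn2c had one on 48 of 56 arrays, Cdkn1a on 43, Mtap on 32, Cdkn2a on 25, Cdkn2b on 18, Cdkn2d on 8, and Cdkn1b and Cdkn1c on 6 each, against a median of 31 over all probes. Cdkn1c was measured on 4 of 4 arrays of neocortical progenitors and on 1 of 28 arrays of OV and 3T3. Of 792 probes with at most 1 value on those 28 arrays, 2 (0.253%) had all 4 progenitor values, and Cdkn1c is 1 of them. This class was cut to the pattern of Cdkn1c itself, so its small size is no support for that pattern. Unlike Cdkn1c, the members Cdkn2a, Cdkn2b, Cdkn1b and Cdkn2d had no value in progenitors. Over all probes the median there was 3 values on 4 arrays, and 37.6% had all 4. The share of all probes with no progenitor value was not counted. On these arrays replicas of progenitor RNA were hybridized to each other, and the log2 ratios of Cdkn1c between replicas were -0.50 and -0.93 with GA and -0.16 and 0.12 with SMART. A missing value is not a measured absence, since the rule that removed values is not given.

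**Figure D4:**
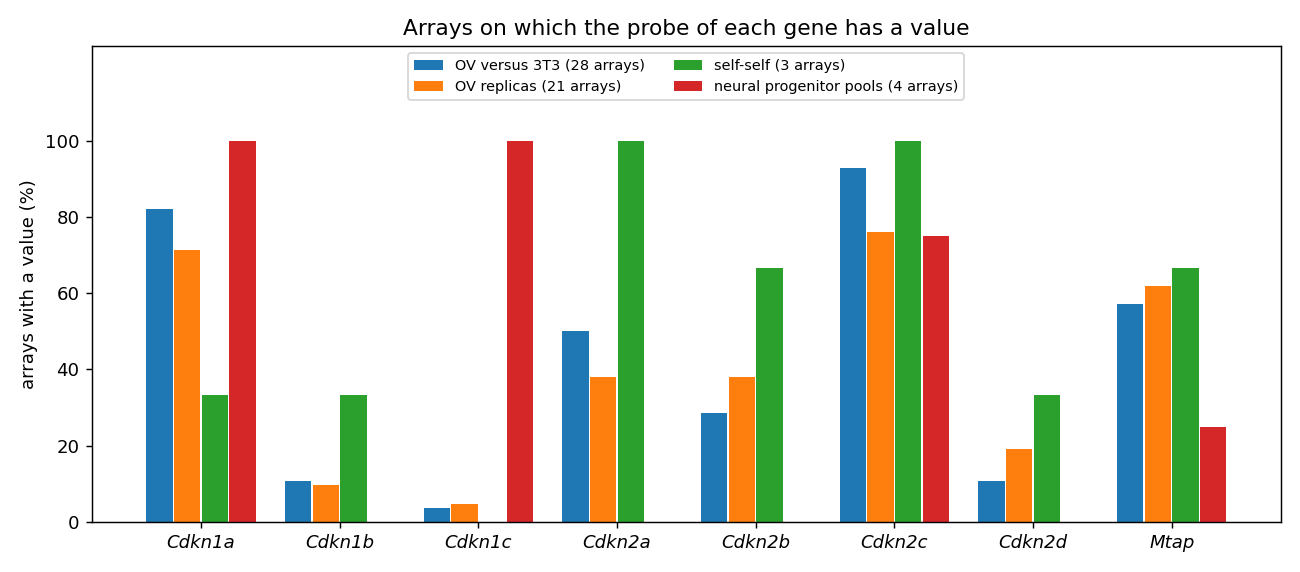
Share of arrays (y axis, percent) on which the probe of each gene (x axis) had a value, by kind of array (colors). Cdkn1c has a value on all 4 progenitor arrays and on 1 of 28 arrays of OV and 3T3, and Cdkn2a on none and on 14 of 28.

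Genes on either side of the locus had ratios of both signs in unamplified cDNA. A chosen list of 23 genes around the locus, which does not hold every gene of the stretch, was looked up. Of its 16 probes (13 genes) measured on all 4 arrays, 1 was called higher in OV and 3 lower, with a median of -0.29. Of all probes, 8.18% and 7.07% were called higher and lower. Next beyond the interferon genes, Hacd4, an enzyme of fatty acid elongation, was higher in OV at 2.55 ± 0.56 (SD, n = 4, adjusted p = 0.000326, limma). Mllt3, a transcription cofactor, was lower by both of its probes, at -1.28 ± 0.39 and -1.71 ± 0.43. At the other end of the stretch, Jun, a subunit of the AP-1 transcription factor, was lower at -0.92 ± 0.12. Probes that were not called lay between -0.53 for Ift74, which serves transport in cilia, and 0.24 for 1 of 2 probes of the ion exchanger gene Slc24a2. Between them were Elavl2 (-0.26), the first listed gene measured beyond Cdkn2b, Caap1 (-0.05 and -0.11), Plaa (-0.31), Rps6 (0.08), Dennd4c (-0.19), Plin2 (-0.39), Haus6 (-0.38), Rraga (-0.36) and the other Slc24a2 probe (-0.06). On 3 arrays only, Tusc1, the next listed gene with values after Elavl2, was at 0.52 ± 0.13 (SD, n = 3) and the interferon gene Ifnb1 at -0.27 ± 0.10, both outside the fit on 4 arrays.

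**Figure D5:**
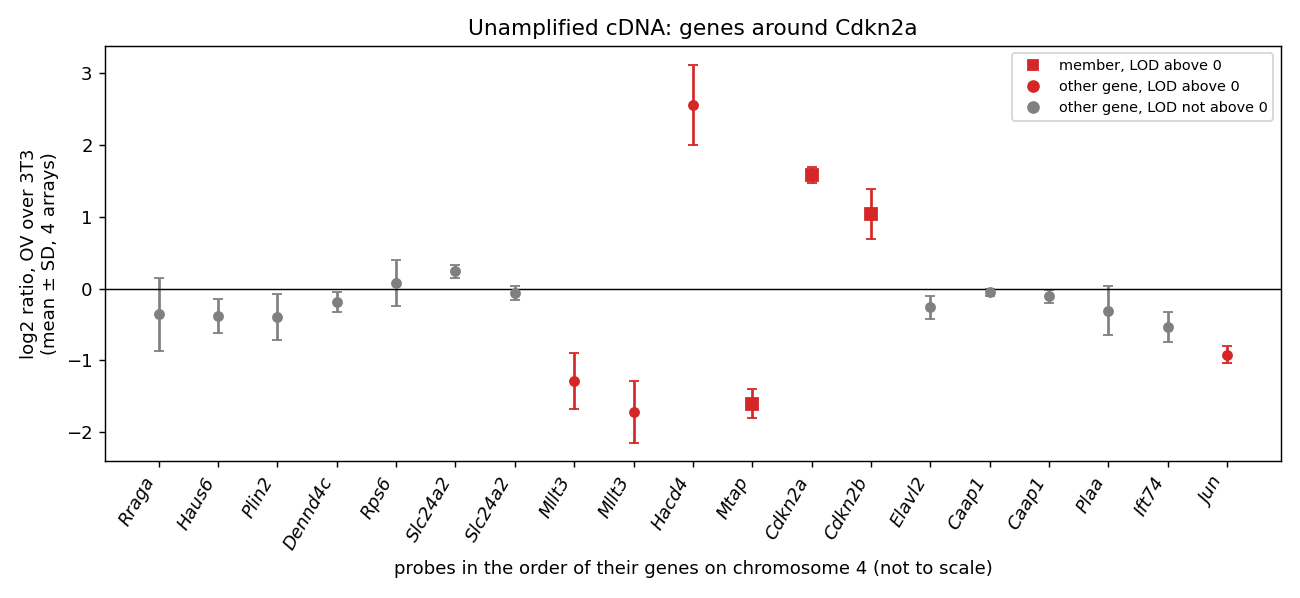
Mean log2 ratio of OV to 3T3 in unamplified cDNA with its SD (y axis, n = 4 arrays) for probes of genes around Cdkn2a in their order along chromosome 4 (x axis, not to scale), red where called and square for members. Mtap at -1.60 stands beside Cdkn2a at 1.58 and Cdkn2b at 1.04, and Elavl2, the next gene shown beyond Cdkn2b, lies at -0.26.

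Of the kinases and cyclins that these inhibitors bind, 17 were measured on all 4 unamplified arrays, of which 6 were lower in OV and 1 higher, with a median of -0.42, at 7.07% and 8.18% of all probes. The same shares stand behind the counts of the lists that follow. The lower ones included Ccnd1, a D cyclin and partner of the Ink4 targets, at -1.72 ± 0.25 (SD, n = 4), the mitotic kinase Cdk1 at -1.39 ± 0.26 and its partner Ccna2 at -1.32 ± 0.18. The cyclin B gene Ccnb2 was the one higher, at 0.57 ± 0.14. After amplification Ccnd1 was at -0.11 ± 0.22 with GA, -0.73 ± 0.35 with SMART and -0.39 ± 0.11 with SM37. In the amplified comparisons 4 to 12 of these genes were tested, and 2 were called lower with GA, 1 with SMART and none otherwise. Of all probes, 8.06% and 3.33% were called with GA and SMART in either direction. With none called, 7 genes were tested with IVTIII, 10 with SM37, 4 with SMART at 10 pg and 5 with GA at 10 pg. There 22.0%, 14.1%, 8.93% and 5.18% of all probes were called in either direction.

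Downstream of the kinases, the retinoblastoma and E2F list had 16 genes tested in unamplified cDNA, with 2 lower in OV, none higher and a median of -0.09. These were the histone deacetylase Hdac2 (-0.67 ± 0.13 (SD, n = 4)) and the repressive E2f5 (-0.65 ± 0.22). For p53 and its targets, 25 probes of 23 genes were tested, of which 8 were lower and 1 higher, with a median of -0.25. Ephx1, an epoxide hydrolase, was at -2.32 ± 0.52, Ccng1, a cyclin that p53 induces, at -1.44 ± 0.47 and Phlda3, a repressor of Akt, at -1.28 ± 0.05, while the antiproliferative Btg2 was at 0.69 ± 0.22. Ephx1 and Phlda3 were also below 0 on average with each amplification other than GA at 10 pg, for Phlda3 from -3.29 ± 0.35 with IVTIII to -0.38 ± 0.29 with SM37 at 4 arrays each.

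Among regulators of the inhibitor genes, 37 probes of 34 genes were tested, with 8 lower in OV, 4 higher and a median of -0.23. Klf4, a transcription factor that activates Cdkn1a, was at -2.91 ± 0.34 (SD, n = 4), Myc, a repressor of Cdkn1a and Cdkn2b, at -0.93 ± 0.15 and the chromatin protein Hmga2 at -0.89 ± 0.24. The TGF-beta receptor Tgfbr2 was higher at 1.39 ± 0.26, as were Ets2, an activator of Cdkn2a, at 1.20 ± 0.47 and Id1, its antagonist, at 0.93 ± 0.18. Klf4 was below 0 on average with all 4 amplifications of 10 ng, from -1.85 ± 0.35 with IVTIII to -0.94 ± 0.47 with SMART. Around Mtap, 14 genes of methionine salvage and polyamine synthesis were tested, with 3 lower, 1 higher and a median of -0.15. Spermine synthase, Sms, was at -1.64 ± 0.26, Adi1, which acts later in the salvage route that Mtap opens, at -0.64 ± 0.05, and spermidine synthase, Srm, at -0.46 ± 0.07, while Ahcy, which clears S-adenosylhomocysteine, was at 0.48 ± 0.09. Medians of all these lists stood beside a median of all probes at 0 to 2 decimals, and the lists were chosen with earlier results known, so nothing is read from their direction.

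The genes with the most similar ratios were sought for Cdkn1a and Cdkn2c, which had 4 values in 5 comparisons each. For Cdkn1a, the nearest of 793 probes were Fabp5, a fatty acid binding protein, Tmem97, a sterol-regulated membrane protein, and the glycolytic gene Pgk1, with root mean square differences of 0.302, 0.386 and 0.388 on the log2 scale. For Cdkn2c, the nearest of 1972 probes were Erh, Hsph1 and Eif1a at 0.107, 0.112 and 0.113. Erh is a small nuclear protein, Hsph1 a chaperone and Eif1a a translation initiation factor. Cdkn2a and Cdkn2b had 4 values in only 1 comparison and Mtap in 2, too few for such a search.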

How the data were processed

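Per the labels and the paper, targets were hybridized in pairs to arrays of 65-mer oligonucleotides, and the scanned images were analyzed with GenePix Pro. The authors subtracted the background, formed log2 ratios and normalized them within each array by print lowess in limma. These deposited log2 ratios were used without change, and 21766 probes were kept after 231 controls were left out, and 16632 carry 1 gene symbol. Signal intensities were not used here, so depth is given only as counts of probes with a value. The sign of each array was set from its dye labels, taking ratios for Cy5 over Cy3, so that OV, or the first replica, is the numerator. Where labels conflict, the dye named in the description was followed for array 1 of IVTIII, the source names for array 2 of GA at 10 ng, and the titles for SMART replicas at 1 ng. Inputs of 10 ng follow the design text, although some descriptions give micrograms.

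Each comparison was fitted over all probes with a value on all 4 arrays with lmFit and eBayes of limma 3.58.1 under R 4.3.3 (proportion set to 0.01), and a probe was called at an LOD above 0. Amplified and unamplified arrays were compared at a Benjamini-Hochberg adjusted p under 0.05. The code was tested on simulated data. Alternatives covered missing values, threshold, prior, variance, dye, scaling, dye-swap pairs, genes for probes and each array left out. The 8 genes, the lists and the rule for named genes were chosen with earlier results of these data known. By that rule every member is named, with up to 3 called genes of a list in each direction by size in unamplified cDNA. It also names the 3 nearest genes by ratio and each gene of the chosen list of chromosome 4 neighbors that was measured on 4 arrays. Gene order and promoter windows are from RefSeq (GRCm38.p6), and no window is shown for Cdkn1c. Figures used matplotlib 3.10.9.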

Additional observations from a re-analysis of the deposited data

Results flagged for a closer look

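On the unamplified arrays, the ratio of Cdkn2c on array 1 (-0.82) lay far from the other three: its gap was 0.909 of the whole range. About 1 group in 20 is singled out in this way by chance.

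Ratios that differed between amplified and unamplified targets by the test of the difference (limma, adjusted p under 0.05) were those of Cdkn1a with GA (1.35), SMART (1.81), SM37 (1.88) and SMART at 10 pg (1.90), of Mtap with SMART (0.98) and of Cdkn2c with SMART (0.51). With GA at 10 pg, all 3 arrays with a value had the sign opposite to all unamplified arrays for Cdkn1a (difference 3.43), Cdkn2a (-1.83) and Cdkn2c (1.64). With 3 arrays in place of 4, these differences were tested only in the fit that allowed a missing value. The GA arrays at 10 pg correlated with the mean of the unamplified arrays at -0.145 to 0.004, and the part of this in the opposite signs was not tested.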

How the results depend on the processing

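Of 290 values of single members under alternatives, 254 were counted as unchanged, 18 lost a call, 14 gained one and 4 turned sign. The 4 were differences of Cdkn2c that were not called: GA and SM37 against unamplified cDNA became 0.10 and 0.11 with arrays scaled to a common median absolute deviation, and 0.01 each without amplified array 4 (with 1 array left out, from -0.21 to 0.01 for GA and from -0.28 to 0.01 for SM37). No ratio of OV to 3T3 turned sign.

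In unamplified cDNA, 5 members were called, or 4 to 5 with 1 array left out. With IVTIII the count was 0, and 1 at an adjusted p under 0.05. With GA it was 1, and 2 with values on at least 3 arrays, by the adjusted p or with a prior of 0.05 (1 to 2 with 1 array left out). With SMART it was 1, and 2 under these 3 settings and with a dye term (0 to 2). With SM37 it was 1, and 2 under the same 3 settings and under scaling (0 to 1). With SMART at 10 pg it was 1 (0 to 1). Members that differed from unamplified cDNA numbered 0 with IVTIII and 1 under scaling (0 to 1), 1 with GA and 2 on at least 3 arrays (1 to 2), 1 with SMART at 10 pg and 2 on at least 3 arrays (1 to 2), 0 with GA at 10 pg and 3 on at least 3 arrays (0 to 3), and 3 with SMART (2 to 4).

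All probes called moved from 1963 to 5941 by the adjusted p and 3544 with a prior of 0.05 in unamplified cDNA (969 to 2162 with 1 array left out), from 1010 to 2551 and 1584 with IVTIII (663 to 872), 529 to 1796 and 1077 with GA (254 to 422), 301 to 585 and 634 with SMART (95 to 489), 1051 to 3311 and 1931 with SM37, 115 to 400 and 249 with SMART at 10 pg (71 to 84), and 296 to 873 and 667 with GA at 10 pg (100 to 290). A dye term gave 302 with GA and 196 with GA at 10 pg.

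The sources do not state that array numbers pair samples across methods. The mean of each probe over the 4 arrays of its comparison was removed. What remained correlated between same-numbered arrays at -0.20 to 0.12, and at most 2 of 4 arrays correlated best with their own number. Low correlations of this kind do not settle whether the numbers pair samples. The replicate block on array number took the difference of Cdkn2c with SMART to an adjusted p of 0.0735 (0.0552 with scaled arrays), and a replicate block of assumed dye-swap pairs took all probes called with GA at 10 pg from 296 to 159. The block changed no other call of a member. The small number of arrays limits the precision, and how far values stood above background is not known. Leaving out array 1 of SMART, which correlated least with unamplified cDNA in its group, was also listed after the data were seen.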

Other observations

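Among neural progenitor pools, where replicas of the same pool were compared, Cdkn1a had values of -0.33 and -0.55 with GA and 0.09 and -0.24 with SMART. Cdkn2c was at -0.48 and -0.53 with GA and at -0.02 on 1 array with SMART, and Mtap had a single value of -0.24 with SMART.

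Within OV, replicas of 100 pg amplified by SMART had Cdkn2b at -0.70 and -0.37, and GA replicas of 10 ng had Cdkn2a at -0.23 and -0.66. Of 80 values of OV against OV, 4 were over 2-fold, 3 of Cdkn2c and 1 of Mtap.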
